A study of Homo sapiens with 9 samples.

Results

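The genes of the urokinase system, the metalloproteinases MMP9 and MMP14 and their inhibitors were followed in SLAM-Seq libraries of MCF10A, a human line of mammary epithelium that is not transformed. The 9 genes (PLAU, PLAUR, PLAT, SERPINE2, MMP9, MMP14, TIMP1, TIMP2 and TIMP3) were chosen by name, and all 9 were found among the 25801 genes of the table, of which 16841 had reads. All cells were JUN knockout cells that carried JUN fused to an auxin-inducible degron (JUN-AID) together with TIR1, the plant receptor that targets the fusion protein for degradation in the presence of the auxin IAA (indole-3-acetic acid). The first group received no 4-thiouridine (no 4sU), and its labels do not say whether DMSO was given. The second received DMSO and 100 µM 4sU for 1 h (DMSO 4sU), and the third 100 µM IAA for 1 h followed by 100 µM 4sU for another 1 h (IAA 4sU). As the degron acts on the protein, JUN mRNA does not check the depletion.

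Urokinase (PLAU) is a secreted serine protease that cleaves plasminogen to plasmin at the cell surface, where PLAUR, its membrane-anchored receptor, holds it. Tissue plasminogen activator (PLAT) makes plasmin as well, and SERPINE2 (protease nexin-1) is a serpin that inhibits both activators and thrombin. Plasmin and the membrane-bound MMP14 lie upstream of other matrix metalloproteinases, and MMP9 degrades basement membrane collagen. The TIMP proteins block the active site of matrix metalloproteinases and differ in which of them they block. AP-1, the dimer of JUN and FOS proteins, binds the promoters of several genes of this system in other cells.

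In SLAM-Seq, 4sU that is built into RNA during the pulse is read as C instead of T after alkylation. The T>C conversion rate (the share of T positions read as C) therefore follows the newly made share of an mRNA, and its CPM (reads scaled to library size) follow the total amount. The libraries held 20229209, 22380508 and 18997637 reads (no 4sU, replicates 1 to 3), 21287360, 24014195 and 20086010 reads (DMSO 4sU) and 20057746 reads (IAA 4sU). The 3 IAA columns were identical in all 56868 entries of the table and were counted as 1 library of unknown replicate number, so nothing is tested against IAA. The study calls its replicates biological, while the labels do not say that they were separate cultures. If they were not, p-values measure only the spread between these samples, which may be technical. All 8 markers of mammary epithelium reached 1 CPM, with a summed level of 3563 to 4608 CPM in the no 4sU libraries, 4365 to 4632 CPM in the DMSO 4sU libraries and 4381 CPM in the IAA library. The fibroblast markers summed to 13.3 to 18.7 CPM over all libraries, with 2 of 7 reaching 1 CPM, the leukocyte markers to 2.37 to 6.93 CPM and the endothelial markers to 0.179 to 1.08 CPM. Fewer cells of a type and less RNA per cell cannot be told apart in such bulk samples.

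The reads came from the 3′ ends of mRNA, and the 17 entries of the members held 10 intervals with distinct reads, 2 for PLAUR and 1 for each other member. The lengths of 9 intervals were within 32 bases of a 3′ untranslated region (UTR) in the GENCODE annotation of GRCh37, while that of MMP14 differed by 159 bases. The PLAU interval (NM_001145031, 938 bases) matched in length the UTR at chr10:75676321-75677254 on the plus strand. An exon of C10orf55 overlaps it on the other strand, and the TIMP2 UTR is likewise overlapped by an exon of another annotated gene. Whether strand was used in counting was not given in the sources used here. The first PLAUR interval (NM_001301037, 326 bases) matched chr19:44152728-44153044 on the minus strand, and the second (NM_001005376, 365 bases) the UTR of an alternative last exon at chr19:44150247-44150611, further downstream. The intervals of the inhibitors differed most in length, from 103 bases in TIMP1 (NM_003254, chrX:47446088-47446188) to 3667 bases in TIMP3 (NM_000362, chr22:33255362-33259028).

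ATTTA pentamers, the core of AU-rich elements that are known from short-lived mRNAs, were counted in these UTRs on the sense strand. PLAU had 2 in its UTR, and the 326-base PLAUR UTR had 1, within the windows below. They are shown because these intervals had the highest conversion rates among the members, and capitals mark ATTTA (5′ to 3′, GRCh37).
PLAU, chr10:75677173-75677202, plus strand: tgaatATTTAtatttcactatttttATTTA
PLAUR, chr19:44152752-44152781, minus strand: aatattcatattATTTAttttatacttaca
Of all annotated UTRs within 10% of the length, 72.9% held ATTTA at the length of PLAU (n = 1060) and 33.9% at that of the 326-base PLAUR interval (n = 699). PLAT had 4 pentamers, SERPINE2 had 2, TIMP2 had 4 and TIMP3 had 7, against medians of 2, 1, 6 and 8 in UTRs of like length. For PLAU and the 326-base PLAUR interval these medians were 1 and 0. PLAT and SERPINE2, with lower conversion rates, were thus above their medians too. The 365-base PLAUR interval, TIMP1, MMP9 and MMP14 had 0, where 35.8%, 16.2%, 27.6% and 86.4% of UTRs of like length held at least 1. A match is a description of these letters and not a functional site.

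As JUN is an AP-1 subunit, the promoters of the members (250 bases before to 50 bases after the start, RefSeq, GRCh38.p14) were searched for the AP-1 letters TGAGTCA on both strands (TGACTCA in reverse). An entry was found for 6 of the 9 members, in 8 windows. PLAT, MMP9 and TIMP2 had no entry and were not searched, and neither were letters more than 250 bases before a start. Of the 8 windows, only that of PLAUR held the letters, at position -186 from the start, as did 4.95% of 35116 promoters. The TIMP1 window held the variant TGAGTAA (also searched on both strands) at position -101, as did 2.57% of promoters, but this variant was searched after the sequences had been seen. The PLAUR window is shown with TGAGTCA in capitals (5′ to 3′).
PLAUR, chr19:43670120-43670419, minus strand: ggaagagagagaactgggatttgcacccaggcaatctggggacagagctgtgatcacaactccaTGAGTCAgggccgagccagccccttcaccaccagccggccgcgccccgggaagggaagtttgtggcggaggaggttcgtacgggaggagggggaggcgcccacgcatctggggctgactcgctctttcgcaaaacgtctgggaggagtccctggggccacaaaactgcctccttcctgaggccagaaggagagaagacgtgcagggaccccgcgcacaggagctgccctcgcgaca

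First, the amounts of the mRNAs were compared. TIMP1 was the most abundant member and MMP14 the least in CPM, and none of the 9 mRNAs passed the test of total amount between DMSO 4sU and no 4sU. PLAU was at 129, 110 and 128 CPM in the no 4sU libraries, at 117, 76.7 and 130 CPM in the DMSO 4sU libraries and at 146 CPM in the IAA library. Its receptor PLAUR was at 66.6, 72.4 and 70.9 CPM without 4sU, at 88.9, 64.0 and 75.0 CPM with DMSO 4sU and at 98.7 CPM with IAA. In both genes the DMSO 4sU libraries overlapped with the no 4sU libraries, replicate 2 was the lowest DMSO 4sU library, and the IAA library was the highest of all 7 in CPM. After TMM scaling, no 4sU replicate 3 and the IAA library were level for PLAU (137.1 and 136.8). PLAT was at 55.9, 63.5 and 52.3 CPM without 4sU, at 51.4, 65.3 and 53.4 CPM with DMSO 4sU and at 61.5 CPM with IAA. The serpin SERPINE2 was at 24.4, 28.6 and 44.6 CPM, at 38.2, 34.9 and 53.4 CPM and at 37.04 CPM in the same order. The standard deviation of PLAT over the DMSO 4sU libraries (0.18 on the log2 scale) was at percentile 43.1 of all genes tested, while SERPINE2 was highest in replicate 3 of both groups.

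The metalloproteinases were the least abundant members. MMP9 was at 8.06, 7.06 and 11.1 CPM without 4sU, at 20.3, 7.08 and 14.7 CPM with DMSO 4sU and at 15.2 CPM with IAA, corresponding to 158 to 433 reads in the first 6 libraries. MMP14 was at 6.62, 5.41 and 6.79 CPM, at 6.01, 6.62 and 8.81 CPM and at 8.48 CPM, with 121 to 177 reads in these 6. MMP9 thus varied between the DMSO 4sU libraries from the level of the no 4sU libraries upwards, and its standard deviation on the log2 scale (0.72) was at percentile 99.3 of all genes tested. Among the inhibitors, TIMP1 was at 299, 259 and 285 CPM without 4sU, at 564, 232 and 376 CPM with DMSO 4sU and at 475 CPM with IAA. Its spread over the DMSO 4sU libraries (0.64 on the log2 scale) was at percentile 98.5, with replicate 2 below and replicates 1 and 3 above each no 4sU library. TIMP2 was at 74.5, 68.7 and 57.2 CPM, at 62.9, 90.6 and 64.0 CPM and at 64.0 CPM. TIMP3 was at 141, 265 and 258 CPM without 4sU, at 217, 263 and 273 CPM with DMSO 4sU and at 208 CPM with IAA, so that replicate 1 was the lowest library of both groups.

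**Figure D1:**
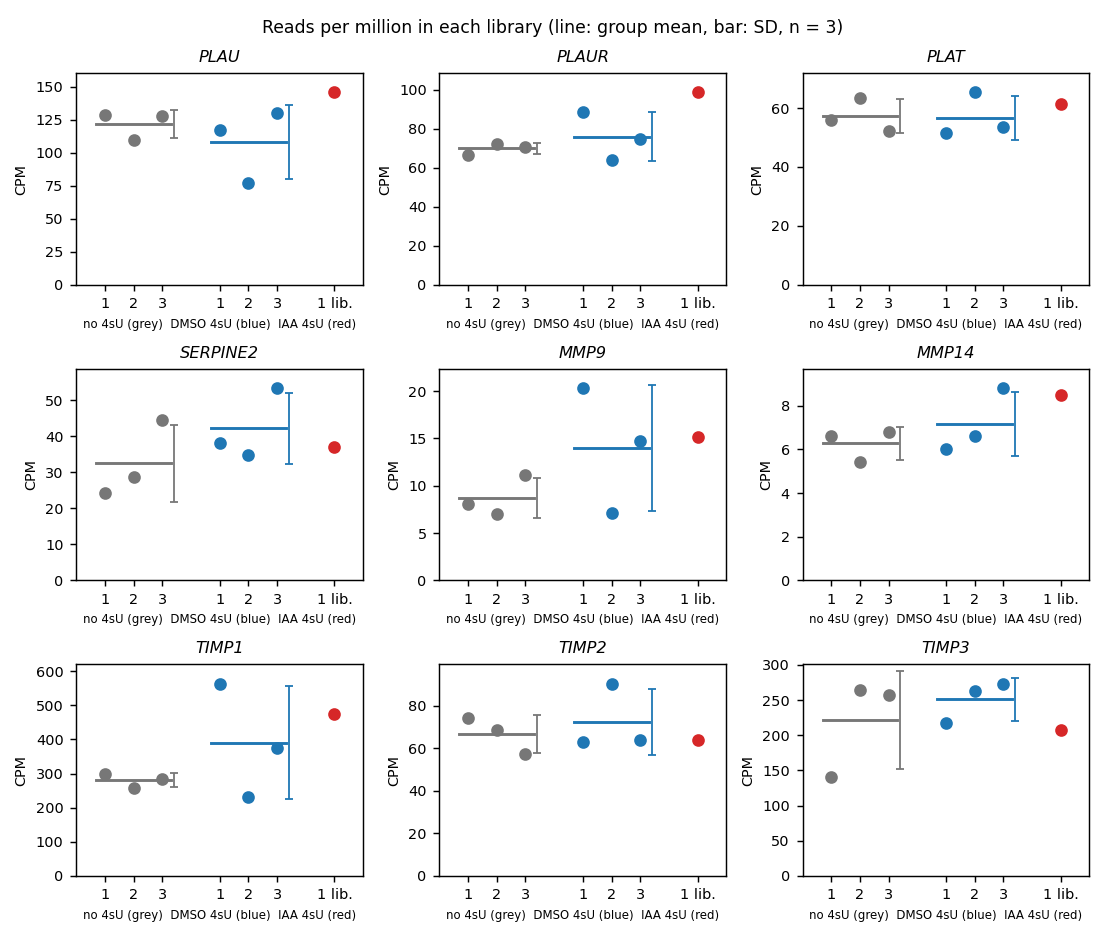
Reads scaled to library size (CPM, y axis from 0) of the 9 members in each of 7 libraries, with no 4sU in grey, DMSO 4sU in blue and the single IAA 4sU library in red; lines are group means and bars the SD (n = 3). The grey and blue points overlap for each gene, and TIMP1 and MMP9 have the widest spread among the blue points.

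The plot of CPM by library shows that the DMSO 4sU libraries did not move together. DMSO 4sU replicate 2 was the lowest of the 3 for PLAU, PLAUR, SERPINE2, MMP9 and TIMP1 and the highest for PLAT and TIMP2.

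Levels between the genes were then compared per length. Per kb of interval the mean of the DMSO 4sU libraries was 3794 CPM per kb for TIMP1, whose interval is short, followed by PLAU (115), PLAUR (110), MMP9 (71.6), TIMP3 (68.4), SERPINE2 (49.2), PLAT (44.4), TIMP2 (26.9) and MMP14 (4.57 CPM per kb). The 3 libraries of neighbours in this order overlapped from PLAU to PLAT, whereas TIMP1 stood above PLAU, PLAT above TIMP2 and TIMP2 above MMP14 in each library. PLAUR was divided by 691 bases, the summed length of its alternative intervals. Its 326-base interval alone held 65.7 of the 76.0 CPM, and divided by that length PLAUR would stand above PLAU. The order and overlap of PLAU and PLAUR thus rest on the summed length. In CPM, without the division by length, TIMP3 came after TIMP1 and MMP9 next to last, at 251 ± 30.1 and 14.0 ± 6.65 CPM (SD, n = 3). As 3′ end libraries give reads from the end of each mRNA whatever the length, the scale per kb lifts genes with a short interval.

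To ask whether the 4sU pulse itself went with a different amount of these mRNAs, log2(CPM + 1) was compared between DMSO 4sU and no 4sU with limma across 11072 genes. None of the 9 members passed an adjusted p of 0.05 (the lowest was 0.70, for MMP9), and 0 had an unadjusted p under 0.05. Likewise, 0 passed with edgeR's quasi-likelihood test, 0 with DESeq2 and 0 with the replicate number as a block. Of all genes tested, 1.63% passed, all of them lower with 4sU, and 1104 had an unadjusted p under 0.05. The groups overlapped for all 9 members, while they did not overlap for 17.7% of all genes tested. The log2 fold change (DMSO 4sU against no 4sU) was -0.25 for PLAU (95% confidence interval -0.72 to 0.22) and 0.06 for PLAUR (-0.32 to 0.44). For the most variable members it was 0.50 for MMP9 (-0.26 to 1.25) and 0.34 for TIMP1 (-0.29 to 0.97). These values moved with the library left out, from 0.19 without DMSO 4sU replicate 1 to 0.89 without DMSO 4sU replicate 2 for MMP9 and from 0.03 to 0.67 for TIMP1 in the same settings. PLAU was at -0.02 without DMSO 4sU replicate 2 and at -0.41 without DMSO 4sU replicate 3. Within replicate numbers, SERPINE2 was higher with 4sU in 3 of 3 pairs (by 0.66, 0.21 and 0.16), and PLAU and PLAT were lower in 3 of 3, but with the replicate block these members did not pass either (limma, adjusted p of 0.33, 0.44 and 0.82). The median over the 9 members was 0.11, and over all genes tested 0.03. With the replicate block the confidence intervals were narrower, at -0.59 to 0.09 for PLAU and -0.0006 to 0.68 for SERPINE2 (-0.25 to 0.93 without the block). These confidence intervals are still wide, and 3 libraries a group cannot show that an amount stayed the same.

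Next, the newly made share of each mRNA was analyzed. PLAU and the 326-base interval of PLAUR had the highest conversion rates of the members, the TIMP genes and PLAT had lower ones, and the rate of MMP9 was not above that of unlabelled cells. The PLAU rate was 0.0453%, 0.0758% and 0.0921% in the no 4sU libraries, 0.297%, 0.343% and 0.235% in the DMSO 4sU libraries and 0.249% in the IAA library. Each labelled library was above each unlabelled one, and the log2 fold change was 1.50 (standard error 0.28, adjusted p = 0.0045 from limma). The median gene was at 0.0587% without 4sU and at 0.210% with DMSO 4sU, and the PLAU rate was at percentile 67.7 of the 7049 genes with at least 200 reads on average.

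For PLAUR, averaged over its intervals, the rate was 0.0492%, 0.107% and 0.0475% without 4sU, 0.255%, 0.197% and 0.182% with DMSO 4sU and 0.238% with IAA. It was higher with 4sU, with a log2 fold change of 1.17 (standard error 0.28, adjusted p = 0.012 from limma), and the groups did not overlap. With the mean weighted by reads, the log2 fold change of PLAUR was 1.69 (adjusted p = 0.0016 from limma). PLAT had 0.0501%, 0.0219% and 0.0356% without 4sU, 0.159%, 0.132% and 0.0843% with DMSO 4sU and 0.210% with IAA. It was higher with 4sU (limma, log2 fold change of 1.02, standard error 0.26, adjusted p = 0.015), again without overlap, although its level with DMSO 4sU was at percentile 20.7 of the genes tested. This call was lost without no 4sU replicate 2 (adjusted p = 0.055) and without a filter on low values (adjusted p = 0.10). SERPINE2 had 0.0609%, 0.0452% and 0.0351%, then 0.0824%, 0.0804% and 0.152%, and 0.0628% with IAA. Here, the groups did not overlap either, but the log2 fold change of 0.65 (standard error 0.26) did not pass (adjusted p = 0.064 from limma).

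The MMP9 rate was 0.0394%, 0.101% and 0.0999% without 4sU, 0.0579%, 0.0303% and 0.0520% with DMSO 4sU and 0.0951% with IAA. The groups overlapped, the log2 fold change was -0.40 (standard error 0.29, adjusted p = 0.25 from limma), and the mean with DMSO 4sU was at percentile 1.33 of the genes tested. MMP14 had too few reads for the test under the filter of 200 reads. Its rate was 0%, 0.0645% and 0.0398% without 4sU, 0.0996%, 0.137% and 0.269% with DMSO 4sU and 0.121% with IAA. The DMSO 4sU libraries were all above the no 4sU libraries. Under a looser filter (3 of 6 libraries with a rate above 0) the log2 fold change was 1.37 (standard error 0.44). That filter rests on the rates that are compared, and the DMSO 4sU libraries of MMP14 alone meet it. No p-value is therefore given for MMP14.

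Among the inhibitors, TIMP1 had a rate of 0.0412%, 0.0615% and 0.0704% without 4sU, 0.156%, 0.162% and 0.140% with DMSO 4sU and 0.135% with IAA. It was higher with 4sU (limma, log2 fold change of 0.92, standard error 0.22, adjusted p = 0.011), and its rates varied little between the DMSO 4sU libraries in which its CPM differed most. TIMP3 was at 0.0538%, 0.0551% and 0.0487% without 4sU, at 0.196%, 0.188% and 0.151% with DMSO 4sU and at 0.108% with IAA. The log2 fold change with 4sU was 1.15 (standard error 0.21, adjusted p = 0.0046 from limma), without overlap of the groups. TIMP2 was at 0.100%, 0.0470% and 0.0349%, then at 0.156%, 0.120% and 0.0762%, and at 0.0869% with IAA. Its groups overlapped, as no 4sU replicate 1 was above DMSO 4sU replicate 3, and the log2 fold change of 0.61 (standard error 0.31) did not pass (adjusted p = 0.12 from limma).

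In total, 5 of the 8 members tested (PLAU, PLAUR, PLAT, TIMP1 and TIMP3), or 62.5%, had a higher rate with 4sU, and 0 had a lower rate. Over all genes tested 62% had a higher and 0.0709% a lower rate, so the share of labelled members was that of genes in general. Each DMSO 4sU library was above each no 4sU library in 6 of the 8 members tested, against 71.4% of all genes. The median log2 fold change was 0.97 over the 8 members and 1.15 over all genes tested. The order of the mean rates with DMSO 4sU was PLAU, PLAUR (averaged over its intervals), TIMP3, MMP14, TIMP1, PLAT, TIMP2, SERPINE2 and MMP9. The libraries of neighbours overlapped at each step except the last, so that MMP9 stood apart below SERPINE2. By its 326-base interval alone (mean of 0.327%), PLAUR came before PLAU (0.292%). When both libraries of a replicate number were left out, which leaves 2 a group, PLAU and TIMP3 passed limma each time (adjusted p of at most 0.040 and 0.037). The calls of the other 3 were lost without replicate 1 (adjusted p of 0.087 for PLAUR, 0.059 for PLAT and 0.059 for TIMP1). Those of PLAT (0.098) and TIMP1 (0.063) were also lost without replicate 2, and that of PLAUR (0.069) without replicate 3.

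**Figure D2:**
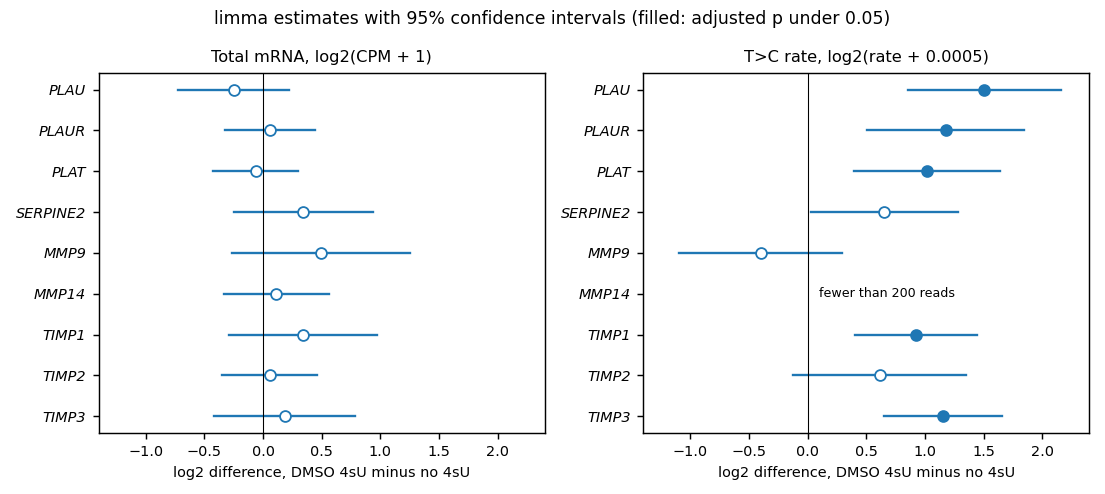
limma estimates of the log2 difference between DMSO 4sU and no 4sU (x axis) with 95% confidence intervals for total mRNA (left) and T>C rate (right), filled where the adjusted p was under 0.05. In total mRNA each interval includes 0, and in the rate 5 of 8 members are filled.

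The 2 intervals of PLAUR were then compared with each other. In the 326-base interval the rate was 0.0495%, 0.0457% and 0.0546% without 4sU, 0.385%, 0.367% and 0.229% with DMSO 4sU and 0.341% with IAA. In the 365-base interval of the alternative last exon it was 0.0488%, 0.168% and 0.0403%, then 0.125%, 0.0269% and 0.134%, and 0.136% with IAA. Hence, the labelled and unlabelled libraries were separated in the former and overlapped in the latter. With each interval as a feature of its own, the log2 fold change was 1.89 (standard error 0.27, adjusted p = 0.0013 from limma over 7887 intervals) for the 326-base interval and 0.12 (95% confidence interval -0.96 to 1.19, adjusted p = 0.82) for the 365-base interval. The log2 difference between the intervals was -0.32 ± 0.76 (SD, n = 3) in unlabelled cells, and in the DMSO 4sU libraries it was 1.45 ± 0.93 (SD, n = 3), a difference of 1.77 (p = 0.10 in an exact two-sided permutation test, which cannot go lower with 3 libraries a group). The 365-base interval held 167 to 326 reads a library, and the 326-base interval 1021 to 1712, so that the rate of the former was less precise. Of the PLAUR reads, the 365-base interval took 24.2%, 14.0% and 13.7% without 4sU, 11.8%, 18.8% and 11.1% with DMSO 4sU and 13.5% with IAA (95% Wilson interval 12.1% to 15.1%, which covers counting error only). The share thus overlapped between the groups.

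**Figure D3:**
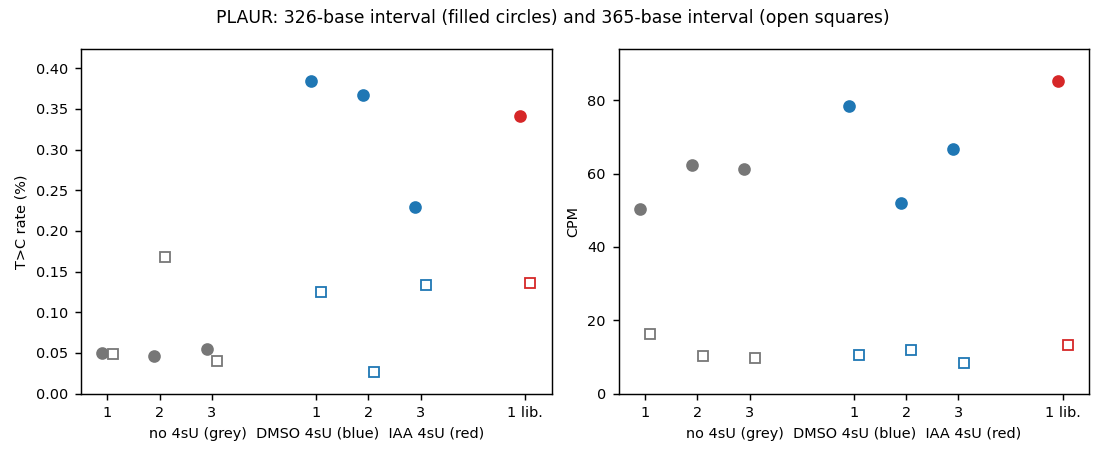
T>C rate (%, left) and CPM (right) of the 326-base (filled circles) and the 365-base (open squares) PLAUR interval in each of 7 libraries, with no 4sU in grey, DMSO 4sU in blue and IAA 4sU in red. In the rate, the filled blue circles, at 0.229% to 0.385%, lie above all other blue and grey symbols, while the open blue squares overlap with the open grey ones.

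To follow the newly made share after JUN depletion, which is the comparison the series was built for, the single IAA library was set against the 3 DMSO 4sU libraries, which the comparison with no 4sU used as well. In the rate, PLAT was above the DMSO 4sU libraries and TIMP3 below them, while in total mRNA after TMM scaling PLAU and PLAUR were above and TIMP2 and TIMP3 below. With the CPM as deposited TIMP2 was within the range, which left 3 members outside. After scaling, the remaining 5 of 9 members were within the range of the DMSO 4sU libraries. Of all genes, 21% lay above and 20.5% below the range of these 3 libraries, so the members were outside it about as often. Without DMSO 4sU replicate 2 the range is narrower, and 7 members were outside it. The share over all genes is not given for that setting, so this count is no result about the members. The log2 difference from the DMSO 4sU mean was 0.38 for PLAU, 0.30 for PLAUR, -0.24 for TIMP2 and -0.35 for TIMP3. None of the 9 members was at least 1 log2 unit from the mean and outside the range, as were 0.164% of all genes tested. The IAA library correlated most with DMSO 4sU replicate 1 in log2 CPM across 10993 genes (Pearson's r of 0.992, against 0.977 and 0.984 for replicates 2 and 3). Against that library alone, the difference was 0.23 for PLAU, 0.07 for PLAUR, -0.05 for TIMP2 and -0.14 for TIMP3.

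In the rate, with each library centred on its median over genes, all 8 members tested were outside the range of the DMSO 4sU libraries, with PLAT, MMP9 and PLAUR above and PLAU, SERPINE2, TIMP1, TIMP2 and TIMP3 below. Of all genes, 24.2% lay above and 25.5% below with centring. Without centring, 5 members were outside, a setting for which the share over all genes is not given. With centring, none of the 8 members was at least 1 log2 unit from the mean, as were 11% of all genes tested. The TIMP3 rate was lower than in DMSO 4sU replicates 1, 2 and 3 by log2 differences of -0.54, -0.81 and -0.58, with -0.64 from their mean. SERPINE2 was at -0.55 from the mean, and without DMSO 4sU replicate 1 it was further from it than TIMP3 (-0.75 against -0.70). PLAT was higher than in each of them, by 0.41, 0.29 and 0.72, with 0.48 from the mean. MMP9 was at 0.48 from the mean as well, but within its no 4sU level. PLAUR was above replicate 2 by 0.00022 and at 0.03 from the mean, or at -0.04 by its 326-base interval alone, and PLAU was at -0.30. With 1 IAA library there is no replicate check for any of these differences.

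**Figure D4:**
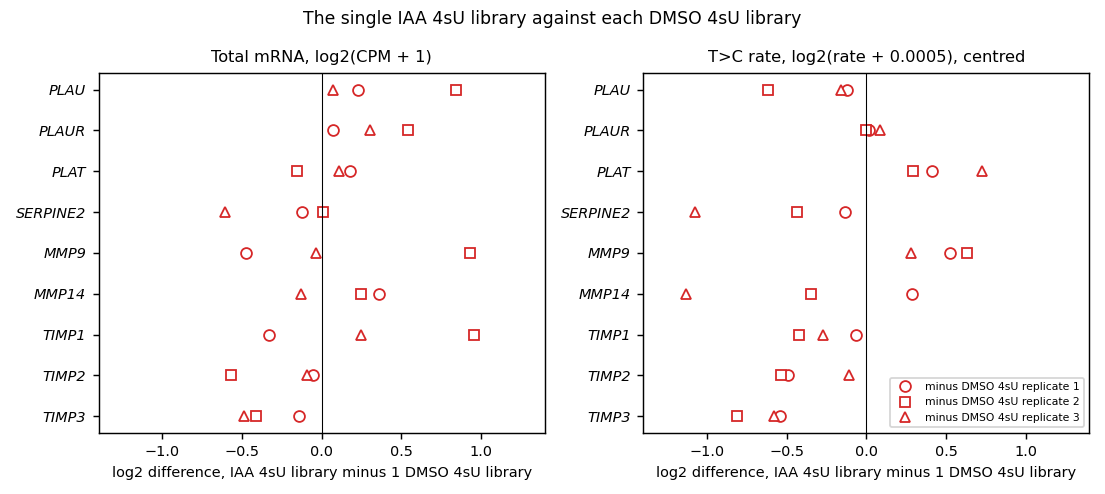
Log2 difference (x axis) between the single IAA 4sU library and each DMSO 4sU library (circle, replicate 1; square, replicate 2; triangle, replicate 3) in total mRNA (left) and in the centred T>C rate (right); a member whose symbols all lie on one side of 0 is outside the DMSO 4sU range. In the rate, TIMP3 lies at -0.54 to -0.81 and PLAT at 0.29 to 0.72, and MMP14, shown here too, had too few reads for the filter.

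The amount of newly made mRNA was approximated by the rate above the mean no 4sU rate (as a fraction) multiplied by CPM. Unlike above, the rates were not centred and the CPM were those deposited, without TMM scaling. For TIMP3 it was 0.311, 0.356 and 0.270 in the DMSO 4sU libraries and 0.116 in the IAA library, a ratio of 0.370 to the mean. For PLAT it was 0.0632, 0.0627 and 0.0259 and then 0.107, a ratio of 2.12. TIMP3 was thus below and PLAT above each DMSO 4sU library. PLAUR (0.166, 0.0825 and 0.0853, then 0.168) was barely above the highest, and with TMM-scaled CPM it would be within the range. SERPINE2 (0.0135, 0.0117 and 0.0563, then 0.00584) was below the lowest. MMP9 was above as well, but its amounts in the DMSO 4sU libraries were negative. PLAU (0.266, 0.208 and 0.213, then 0.260) and TIMP1 (0.557, 0.241 and 0.310, then 0.365) were within the range, as were TIMP2 and MMP14. The ratio of SERPINE2 was 0.215, and the members thus went both ways. The share of all genes outside the range is not given for this measure.

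Genes with the most similar profile were named for PLAU and PLAUR, by the root mean square difference of centred log2(CPM + 1) over the 7 libraries among 6922 genes with at least 10 CPM. For PLAU these were NXT1 (0.118), AMPD2 (0.132) and PLXNA2 (0.138), and PLAUR was at rank 226 (0.228). For PLAUR they were TARBP1 (0.0611), LHFPL2 (0.0613) and CCND3 (0.0641), and PLAU was at rank 1864. The protease and its receptor were therefore not among each other's 3 closest profiles, but each was the closest to the other among the members compared. These 7 points share library and depth effects, and the values are a description.

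Finally, 51 other genes of plasminogen activation, pericellular proteolysis and its inhibitors were looked up. In total mRNA 27 were abundant enough to be tested, and 0 passed (limma, lowest adjusted p = 0.64), with log2 fold changes between -0.30 and 0.34. In the rate, 9 of 20 tested were higher with 4sU (limma, against 62% of all genes) and 0 were lower, with a median log2 fold change of 0.67, below that of all genes tested. Among those higher were the plasminogen receptor PLGRKT (log2 fold change of 0.76), and ANXA2 (0.64) and S100A10 (0.60), which together form a surface receptor for plasminogen. Also among them were the sheddase ADAM17 (1.29), the serpin SERPINB5 (1.12), the serine protease inhibitor SPINT2 (0.62), the lysosomal protease CTSD (1.20) and the cathepsin inhibitor CST3 (1.13). The substrate of the system, plasminogen (PLG), had 0 reads in each library. Of 19 genes of the metalloproteinase group, 4 were tested in total mRNA and 3 had 0 reads throughout. MMP1, MMP2 and MMP3 reached at most 0.211, 0.247 and 0.333 CPM, so that MMP9 and MMP14 were the more abundant in these cells despite their low level.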

How the data were processed

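Per the labels, the genome build was hg19, and the reads had been run through a Nextflow pipeline for SLAM-Seq. The deposited T>C conversion rate is a fraction per 3′ interval, with no background subtracted. The deposited CPM column is a signal scaled to library size; 100% of values above 0 were whole reads within a tolerance of 0.01, which gave the reads. How many T positions lay behind a rate is unknown, and so is its counting error. No column of a sample was left unused (0).

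RefSeq identifiers were matched to genes for 97.7% of entries. Entries of a gene with the same reads in all libraries were counted once, distinct intervals were summed (CPM) or averaged (rate). limma (3.58.1, R 4.3.3; trended, robust) was run on log2(CPM + 1) after TMM scaling (mean of at least 1 CPM) and on log2(rate + 0.0005) (at least 200 reads on average), with Benjamini-Hochberg adjustment over all genes. A fold change on these scales understates that of low genes. Alternatives for the recovered reads were DESeq2 (1.42.0) and edgeR (4.0.16). Other alternatives were pseudocounts, filters, scalings, choice of interval, the replicate block and leaving out each library. On simulated data limma recovered 99.5% of 3-fold changes in CPM, and in the rate 44% of 4-fold and 97% of 9-fold changes (200 of 7049 genes). The simulation gave all genes the same dispersion or noise, had no replicate effect and assumed the number of T positions per read. It therefore does not tell what share would be recovered for members as variable as MMP9 and TIMP1, or where most genes change in the rate.

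Same-numbered libraries deviated together in total mRNA (correlations of 0.39, 0.32 and 0.37 over 11072 genes) but not in the rate (-0.011 to 0.0052). Members and gene lists were chosen with earlier results of these data known. All 9 members are named, with pathway genes past the threshold in total mRNA (none) and the 3 closest profiles of PLAU and PLAUR. The pathway genes in the text were named after their values were seen. Some results of this list are not reported here. Sequences were read from RefSeq promoters and GENCODE transcripts with Python 3.11.15.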

Additional observations from a re-analysis of the deposited data

How the results depend on the processing

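Differences of the size seen in MMP9 and TIMP1 in total mRNA were within their wide spread between libraries, and rates from few reads (MMP14, MMP9, the 365-base PLAUR interval) are imprecise. In total mRNA, 0 members passed in every setting, and the count of genes was 180, against 214 with the replicate block, 380 with DESeq2, and 29 to 392 with libraries left out (61 to 269 with 1 library, and 392, 30 and 29 without replicates 1, 2 and 3 of both groups). Leaving out a number in both groups, adding up intervals of unequal length, and each interval as its own feature were chosen after seeing the data. With libraries left out, small log2 fold changes turned sign: PLAUR was between -0.13 (without replicate 1) and 0.21, PLAT between -0.16 and 0.023, MMP14 between -0.032 and 0.22, TIMP2 between -0.11 and 0.19, and TIMP3 between -0.15 (without no 4sU replicate 1) and 0.35. The cause was not tested. In the rate, 5 members and 4373 genes passed. With the replicate block it was 5 and 3948, although the numbers do not pair the rates, and with libraries left out 2 to 5 members and 2611 to 4282 genes, with fewer libraries in the fit. The block changed no call of a member. For IAA, 18 genes were past 1 log2 unit in total mRNA, against 42 and 6 with pseudocounts of 0.5 and 5, 28 with CPM as deposited and 13 to 103 with 1 DMSO 4sU library left out (103 without replicate 1). Members outside the DMSO 4sU range were 4, 3 with CPM as deposited, 5 without DMSO 4sU replicate 1 or 3 and 7 without replicate 2. With a library left out the range is narrower, and the share over all genes is not given for these settings. The median log2 ratio of newly made amounts was -0.016 over 7 members, and between -0.25 and 0.30 with 1 DMSO 4sU library left out. MMP9 and MMP14 were not among these 7. MMP14 had a ratio of 0.699 to the DMSO 4sU mean, and counting it would lower the median, so this value depends on that choice. In the rate, 777 genes were past it, 510 with a pseudocount of 0.001 and 2456 when genes needed only a rate above 0 in 2 of 4 labelled libraries. Without centring, 5 in place of 8 members were outside the range. No paired analysis was possible for IAA because its columns hold 1 library of unknown number.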
